A study of Saccharomyces cerevisiae with 8 samples.

Results

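Yeast lacking Dbp3 was set against wild-type yeast at every annotated ribose methylation of the large rRNAs. The Delta_Dbp3 strain and the WT strain each gave 2 libraries, replicates A and B, which make 4 of the 8 samples of the series and were chosen by their genotype labels. The remaining 4 libraries come from a strain with PRP43 under a GAL promoter, 2 in galactose (PRP43_Gal) and 2 in glucose, where PRP43 is shut off (PRP43_Glu). They enter the fit only to estimate the spread, and some of their values are set beside Delta_Dbp3 where barcodes are discussed. The sites are the 55 positions that the authors list, 18 in the 1800 nt of 18S rRNA and 37 in the 3396 nt of 25S rRNA.

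All 4 compared samples are whole cell RNA of Saccharomyces cerevisiae from exponentially growing cultures, and the series states that duplicates are biological. The labels give no agent, time or strain background. They name rich medium with glucose or galactose and synthetic medium without leucine, but not which one the Delta_Dbp3 and WT cultures had, so a difference of medium cannot be told apart from the deletion. How many clones stand behind each genotype is likewise not given in the sources used here. The tables of these strains hold read ends on 18S, 25S and 4 snoRNAs, so the label of the deletion itself was not checked against DBP3 mRNA.

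A box C/D snoRNA pairs with rRNA and places the methyltransferase Nop1, the yeast fibrillarin, on the nucleotide opposite the fifth guide base before its box D or D'. The particle also holds Nop56, Nop58 and Snu13. Dbp3 is a DEAD-box RNA helicase of the nucleolus known for its part in assembly of the large ribosomal subunit, and helicases of this kind can unwind short RNA duplexes. A methyl group on the 2' oxygen of a ribose protects the neighbouring bond from alkali, so that few fragments begin or end there.

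The method used, RiboMeth-seq, counts fragment ends at each nucleotide after partial alkaline cleavage. The score of a site is 1 minus its read ends over the number expected from 6 neighbours on each side. It lies near 1 where nearly all rRNA molecules carry the methyl group and near 0 where the site is cut like its neighbours. It is called the methylation score below, and where it is made from one kind of read end alone that is stated. Values of a group are given for replicate A and then for replicate B.

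The rRNA stretches that hold the 15 lowered sites are shown first, 5′ to 3′ as read from the authors' per-nucleotide tables, with each annotated methylated nucleotide in capitals. The first stretch holds 5 of the 15 and the others hold the rest, except that of Gm2619, which is shown because its mean change was the largest among the sites that did not pass.
25S 800 to 913 (Gm805, Am807, Am817, Gm867, Am876, Um898, Gm908): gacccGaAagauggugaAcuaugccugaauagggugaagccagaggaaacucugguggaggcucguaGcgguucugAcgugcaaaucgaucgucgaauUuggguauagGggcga
25S 641 to 658 (Am649, Cm650): cuugaaacACggaccaag
25S 1432 to 1455 (Cm1437, Am1449, Gm1450): cagauCuuggugguaguAGcaaau
18S 1261 to 1279 (Um1269, Gm1271): guggguggUgGugcauggc
25S 2411 to 2427 (Um2417, Um2421): ugagcuUgacUcuaguu
25S 2611 to 2627 (Gm2619): uuuggcugGggcggcac
25S 2718 to 2735 (Um2724, Um2729): uugauuUucagUgugaau
25S 2941 to 2964 (Am2946, Cm2948, Cm2959): acgugAgCuggguuuagaCcgucg
25S 2189 to 2205 (Cm2197): uuucugccCagugcucu

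For U18, U24 and snR60 the authors' tables also hold the snoRNA, and these pairings are shown because all but 1 of the 7 sites they direct were called lower. Capitals mark the guide base opposite the methylated nucleotide and, in the rRNA, that nucleotide. Each pair of lines runs 5′ to 3′ in both RNAs, so one of them is read backwards to see the pairing.
U18 for Am649: auucuuugguccgUguuu
25S 645 to 662: aaacAcggaccaaggagu
U24 for Cm1437: auuaucaccaaGaucu
25S 1433 to 1448: agauCuuggugguagu
U24 for Am1449: auauuugcUacu
25S 1446 to 1457: aguAgcaaauau
snR60 for Am817: gcauagUuca
25S 814 to 823: ugaAcuaugc
snR60 for Gm908: auuagucuuucgcuCcuau
25S 904 to 922: auagGggcgaaagacuaau

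The snR60 pairings spanned 19 bp at Gm908, 1 of them a G-U pair, and 10 bp at Am817, with none. In both, as at Cm1437, the letters CUGA of a box D follow the guide base at the distance stated above. At the other sites of U18 and U24 they do not. The letters at that distance are AUGA for Am649, UAUG for Cm650, CAGA for Am1449 and UCAG for Gm1450. The pairings at Am649 and Cm1437 each hold 2 G-U pairs. Am649 and Cm650 are neighbours under one 18 bp pairing with U18, and Am1449 and Gm1450 are neighbours under one 12 bp pairing with U24. The tables hold these snoRNAs with flanking sequence and name U18 and U24 snR18 and snR24. Assignments of guides to sites are general knowledge of yeast, not part of the labels or tables.

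Depth was alike in both strains. In total, 18S and 25S received 11253781 and 9717799 read ends in Delta_Dbp3, against 12211596 and 10997180 in WT. The median number of read ends expected at a site was 1193 and 1504 in Delta_Dbp3 and 1286 and 1170 in WT, and the lowest was 197, in Delta_Dbp3 replicate A. Exact Poisson intervals on the read ends at a site, at 95%, are given for Am817. They take reads as independent and the expected number as fixed, and they leave out the spread between libraries. Reads without molecular identifiers are not independent molecules, so the intervals can be too narrow even for counting error.

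The Delta_Dbp3 libraries stand apart from the WT libraries in another way, which the table headers record. Delta_Dbp3 replicate A carried the same barcode as PRP43_Glu replicate B, and Delta_Dbp3 replicate B the same as PRP43_Glu replicate A, while each WT library had a barcode of its own. Barcode and genotype therefore cannot be told apart in the comparison. Read-end profiles were taken at unannotated nucleotides with at least 50 expected ends, as log2 of read ends over expected read ends with 1 added to each. For 3' ends each Delta_Dbp3 library was more like the PRP43_Glu library of its barcode than like any other library. Over 4857 nucleotides, which share libraries and base composition, Pearson's r was 0.586 and 0.614 between each Delta_Dbp3 library and the PRP43_Glu library of its barcode. It was 0.474 between the Delta_Dbp3 duplicates, 0.538 between the WT duplicates, and 0.298 to 0.503 between a Delta_Dbp3 library and a library of another group and barcode. For 5' ends, over 4909 nucleotides, the same-barcode pairs had 0.543 and 0.615, below the Delta_Dbp3 duplicates at 0.730 and below all 4 pairs of a Delta_Dbp3 with a WT library, at 0.698 to 0.731. The part of the barcode in the site results was not tested, so every site is given from both kinds of read end. PRP43_Glu differs from Delta_Dbp3 in strain and in PRP43 shut-off too, and its median score over the sites was 0.817 and 0.810.

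**Figure D1:**
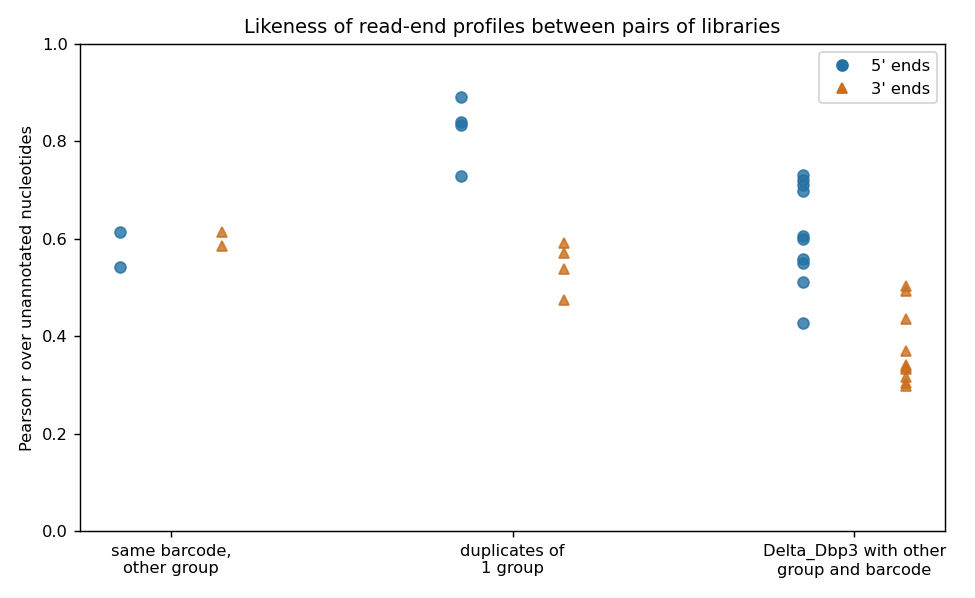
Pearson's r between read-end profiles for pairs of libraries, with circles for 5' ends over 4909 nucleotides and triangles for 3' ends over 4857. Profiles are log2 of read ends over expected read ends, with 1 added to each, at unannotated nucleotides of 18S and 25S. Pairs from different groups are drawn only where a Delta_Dbp3 library is in the pair. For 3' ends the 2 pairs of the same barcode, at 0.586 and 0.614, lie above the Delta_Dbp3 duplicates at 0.474, whereas for 5' ends the duplicates of every group, at 0.730 to 0.891, lie above both.

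Across the 55 sites the median methylation score was 0.903 and 0.913 in Delta_Dbp3, against 0.968 and 0.967 in WT. A mean score above 0.9 was found at 29 sites in Delta_Dbp3 and at 47 sites in WT. Duplicates differed by a median of 0.0262 in Delta_Dbp3 and 0.0133 in WT, and by more than 0.1 at 10 sites in Delta_Dbp3 and 2 sites in WT. Neither Delta_Dbp3 library was the low one throughout, since replicate A lay below replicate B at 27 of the 55 sites.

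Of the 55 sites, 15 fell (27.3%) and 0 rose (0%) in Delta_Dbp3 (limma, Benjamini-Hochberg adjusted p of at most 0.05). The largest falls among the 15 were at Um2421 of 25S (-0.494), Gm908 of 25S (-0.399), Um1269 of 18S (-0.397) and Cm2948 of 25S (-0.353). At Um2421 the fall came from 3' ends alone, and at Cm2948 from 5' ends alone. Gm2619 (-0.488) and Am876 (-0.475) had larger mean falls than Gm908 and did not pass. All 3 targets of the snoRNA U24 and both targets of snR60 were among the 15, and the smallest fall was at Gm805 (-0.0842). At an unadjusted p under 0.05 the counts were 20 lower and 0 higher. Both Delta_Dbp3 libraries were below both WT libraries at all 15, and at 38 of the 55 sites (69.1%) in all, with both above at 3 sites and the groups overlapping at 14. Among 5117 unannotated nucleotides, both Delta_Dbp3 libraries had relatively more read ends than both WT libraries at 968 (18.9%), which is the background of such a separation where no methyl group is annotated. When limma was run on read ends over expected ends at all nucleotides together, 11 of the 55 sites (20%) and 9 of the 5117 unannotated nucleotides (0.176%) were called lower in protection. The median log2 ratio of read ends between Delta_Dbp3 and WT was 0.95 at the sites and -0.02 at unannotated nucleotides. The count of 15 became 7 with WT replicate A left out, 8 with WT replicate B left out, 7 with only the 4 compared libraries in the fit and 16 without either Delta_Dbp3 library. With edgeR on the summed read ends, Cm2948, Cm2959 and Cm2197 lost their call (adjusted p = 0.0720, 0.0505 and 0.113). In the 22 refits Am649, Gm908 and Am1449 passed every time, Am817 and Um1269 21 times, and the other 10 sites between 7 and 19 times. With 2 libraries against 2, an exact permutation test of a single site cannot go below p = 0.333, so the calls rest on the spread pooled over 4 groups.

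**Figure D2:**
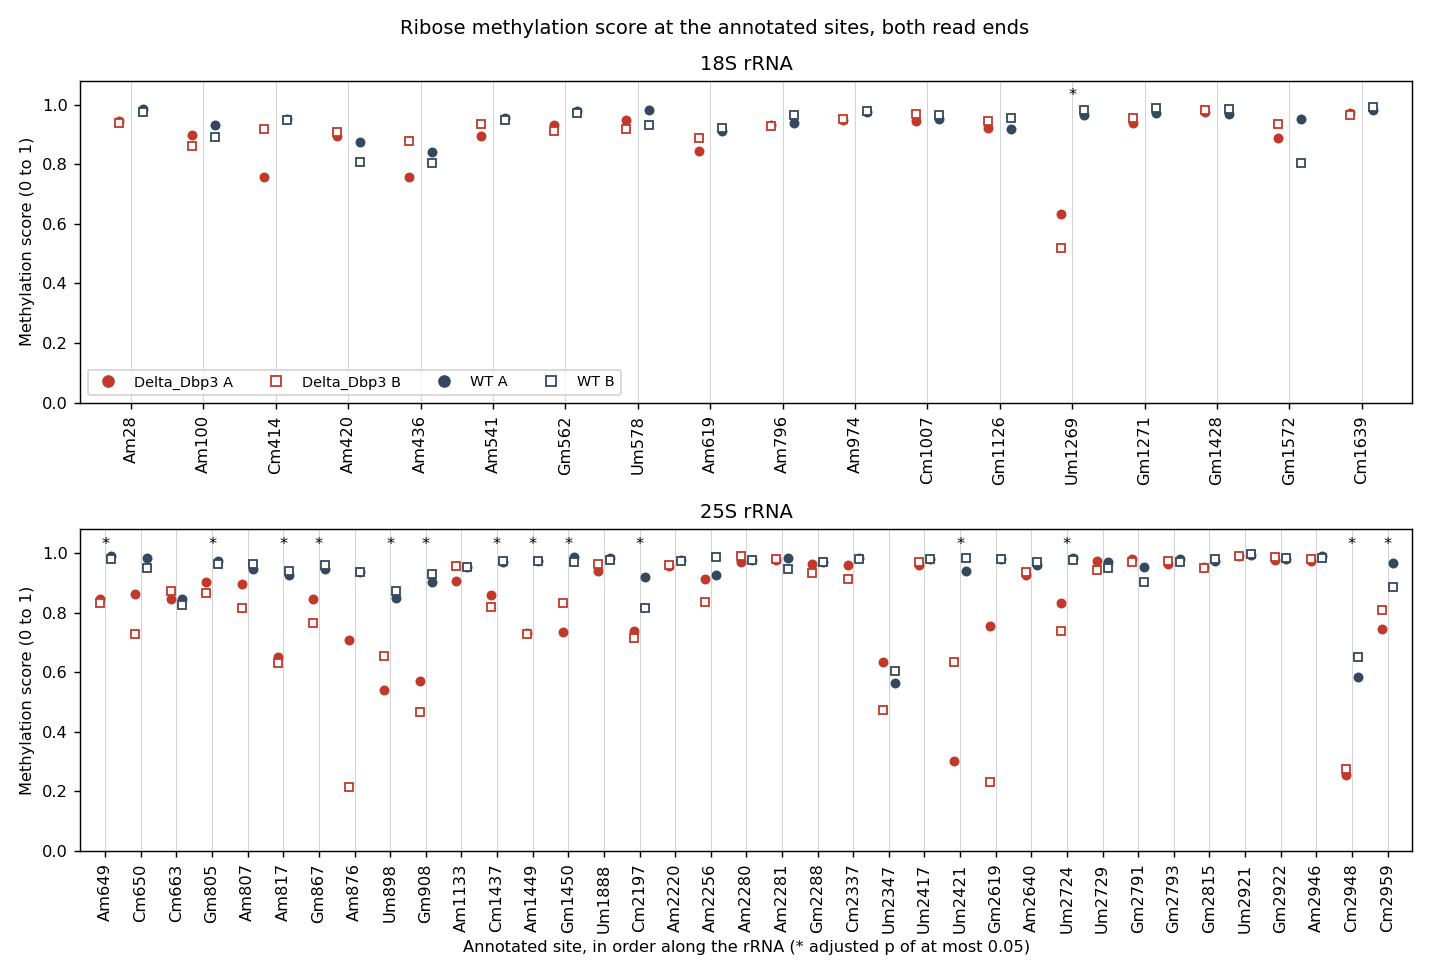
Methylation score (0 to 1, both read ends summed) at the 18 sites of 18S and the 37 sites of 25S, in order along each rRNA, with a point for each library and Delta_Dbp3 left of WT; an asterisk marks an adjusted p of at most 0.05. The 15 marked sites all have both Delta_Dbp3 points below both WT points, and 14 of them lie in 25S.

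Beside 27.3% of all 55 sites called lower and 69.1% with both Delta_Dbp3 libraries below both WT libraries, the counts along the rRNA were as follows, and differences between its parts were not tested. In 25S 14 of 37 were called lower, with a median change of -0.0834, and in 18S 1 of 18, with a median of -0.0244, beside a median of -0.0327 over all 55. The stretch with the most calls ran from Am649 to Gm908, where 6 of 10 sites passed and the median change was -0.16. Both Delta_Dbp3 libraries were below both WT libraries at 9 of these 10. Next came the interval from Am1133 to Um1888 with 3 of 5 sites called and a median of -0.134. In the other parts of 25S the counts were 1 of 6 from Cm2197 to Gm2288, 1 of 4 from Cm2337 to Um2421, 1 of 7 from Gm2619 to Gm2815 and 2 of 5 from Um2921 to Cm2959, with medians between -0.0377 and -0.0105.

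snR60 directs Am817 and Gm908, and both fell. Am817 had scores of 0.652 and 0.629 in Delta_Dbp3, against 0.927 and 0.941 in WT. The groups were far apart and each pair of duplicates lay close together. The 95% counting intervals were 0.611 to 0.689 and 0.590 to 0.665 in Delta_Dbp3, and 0.905 to 0.945 and 0.923 to 0.956 in WT. The change was -0.294 ± 0.0175 (SE, limma adjusted p = 0.000455). At Am817 the 5' ends gave 0.621 and 0.63 in Delta_Dbp3 against 0.934 and 0.941 in WT, and the 3' ends gave 0.848 and 0.628 in Delta_Dbp3 against 0.898 and 0.942 in WT. The fall passed from 5' ends (-0.312, adjusted p = 3.31e-05) and not from 3' ends (-0.182, adjusted p = 0.303), although the groups did not overlap in either.

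Gm908 had scores of 0.569 and 0.466 in Delta_Dbp3, against 0.904 and 0.928 in WT. Both Delta_Dbp3 libraries lay well below WT, and the change was -0.399 ± 0.0346 (SE, limma adjusted p = 0.00107). The raw counts at the site were higher in Delta_Dbp3, since 167 and 248 reads began there in Delta_Dbp3 against 36 and 61 in WT, and 111 and 173 ended there in Delta_Dbp3 against 75 and 43 in WT. Set against the neighbours, the 5' ends gave 0.233 and 0.0475 in Delta_Dbp3 against 0.879 and 0.88 in WT, and the 3' ends gave 0.74 and 0.672 in Delta_Dbp3 against 0.913 and 0.954 in WT. The fall passed from each end alone (adjusted p = 0.000983 with 5' ends and 0.0183 with 3' ends). It was larger from 5' ends, and the difference between the ends, -0.512 ± 0.0576 (SE), passed its own test (limma adjusted p = 0.00533). No site passed that test when the ends were compared on a log2 ratio of read ends over expected ends. PRP43_Glu libraries B and A, with the barcodes of Delta_Dbp3 A and B, had 0.747 and 0.757 here.

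Between these snR60 targets lie Gm867, Am876 and Um898, directed by snR50, snR72 and snR40. Gm867 had scores of 0.845 and 0.764 in Delta_Dbp3, against 0.946 and 0.961 in WT. The groups did not overlap, and the change was -0.148 ± 0.0308 (SE, limma adjusted p = 0.0205). At Gm867 the 5' ends gave 0.685 and 0.827 in Delta_Dbp3 against 0.933 and 0.951 in WT, and the 3' ends gave 0.892 and 0.678 in Delta_Dbp3 against 0.974 and 0.97 in WT. Neither end alone passed for it (adjusted p = 0.0626 and 0.303). The low library differed by end, replicate A from 5' ends and replicate B from 3' ends.

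Um898 had scores of 0.541 and 0.653 in Delta_Dbp3, against 0.849 and 0.873 in WT. Its WT level was already below most other sites, and Delta_Dbp3 lay lower again, with a change of -0.264 ± 0.0385 (SE, limma adjusted p = 0.00719). For Um898 the 5' ends gave 0.824 and 0.727 in Delta_Dbp3 against 0.867 and 0.892 in WT, and the 3' ends gave 0.52 and 0.643 in Delta_Dbp3 against 0.849 and 0.872 in WT. Most read ends at this site were 3' ends, 513 and 673 in Delta_Dbp3 against 763 and 239 in WT. Few reads began there, 14 and 68 in Delta_Dbp3 against 9 and 12 in WT, and neither end alone passed (adjusted p = 0.117 with 5' ends and 0.583 with 3' ends). PRP43_Gal replicate B, with a barcode of its own, had 0.141 from 3' ends and 0.834 from 5' ends here. Its deposited group mean uses the 5' value. The low 3' value of that library enters the pooled spread of the test on 3' ends (SE 0.205). In the fit with both ends summed, 0.834 stands in place of 0.383 for that library. The SE of 0.0385 therefore leaves its low reading out. The second target of snR40, Gm1271 of 18S, had 0.937 and 0.956 in Delta_Dbp3, against 0.972 and 0.988 in WT, a change of -0.0333 that did not pass (limma adjusted p = 0.215). At Gm1271 the 5' ends gave 0.947 and 0.959 in Delta_Dbp3 against 0.969 and 0.988 in WT, and the 3' ends gave 0.929 and 0.951 in Delta_Dbp3 against 0.977 and 0.989 in WT.

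Am876 had scores of 0.708 and 0.214 in Delta_Dbp3, against 0.935 and 0.936 in WT. The WT libraries were nearly equal, and the Delta_Dbp3 libraries were both lower but far from each other. Its change of -0.475 ± 0.155 (SE) was among the largest of all and did not pass (limma adjusted p = 0.0791). From both ends Delta_Dbp3 lay below WT, where the 5' ends gave 0.507 and 0.202 in Delta_Dbp3 against 0.927 and 0.905 in WT, and the 3' ends gave 0.878 and 0.222 in Delta_Dbp3 against 0.948 and 0.985 in WT. The 5' ends alone passed (adjusted p = 0.0234). PRP43_Glu replicate A, which shares the barcode of the lower library, had 0.367 from both ends summed, and there the authors had put the 5' value of 0.534 in its place. The part of the barcode in the Delta_Dbp3 value was not tested.

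At the start of the same stretch, Gm805 and Am807 are close neighbours, directed by snR39b and by the pair snR39 and snR59. Gm805 had scores of 0.903 and 0.865 in Delta_Dbp3, against 0.975 and 0.962 in WT, and its change of -0.0842 ± 0.0161 (SE) was the smallest that passed (limma adjusted p = 0.0157). The groups did not overlap. At Gm805 the 5' ends gave 0.907 and 0.828 in Delta_Dbp3 against 0.974 and 0.966 in WT, and the 3' ends gave 0.893 and 0.928 in Delta_Dbp3 against 0.976 and 0.931 in WT, and neither end alone passed (adjusted p = 0.0626 and 0.663). Am807 had 0.897 and 0.815 in Delta_Dbp3, against 0.946 and 0.963 in WT, again with both Delta_Dbp3 libraries below both WT libraries, and a change of -0.0985 ± 0.05 (SE) that did not pass (limma adjusted p = 0.215). For Am807 the 5' ends gave 0.916 and 0.902 in Delta_Dbp3 against 0.968 and 0.989 in WT, and the 3' ends gave 0.827 and 0.64 in Delta_Dbp3 against 0.844 and 0.747 in WT, and only the 5' ends separated the groups.

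U18 is processed from an intron and directs the neighbours Am649 and Cm650. Am649 had scores of 0.847 and 0.833 in Delta_Dbp3, against 0.989 and 0.98 in WT. The duplicates of each strain lay closer together than the strains, and the change of -0.145 ± 0.0113 (SE) passed (limma adjusted p = 0.000921). In Delta_Dbp3, 39 and 153 reads began at Am649 and 66 and 87 ended there, whereas in WT 8 and 6 began and 3 and 12 ended there. With the neighbours taken into account, the 5' ends gave 0.847 and 0.793 in Delta_Dbp3 against 0.985 and 0.975 in WT, and the 3' ends gave 0.847 and 0.875 in Delta_Dbp3 against 0.994 and 0.982 in WT. The site passed from each end alone (adjusted p = 0.0234 with 5' ends and 0.0187 with 3' ends).

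Cm650 had scores of 0.863 and 0.729 in Delta_Dbp3, against 0.982 and 0.95 in WT. Its change of -0.171 ± 0.055 (SE) was larger than that of its neighbour, but the Delta_Dbp3 libraries lay farther apart and it did not pass (limma adjusted p = 0.0791). At Cm650 the 5' ends gave 0.846 and 0.65 in Delta_Dbp3 against 0.975 and 0.933 in WT, and the 3' ends gave 0.874 and 0.853 in Delta_Dbp3 against 0.993 and 0.959 in WT. The groups did not overlap from either end. Cm663, a short way downstream and directed by snR58, had 0.846 and 0.872 in Delta_Dbp3, against 0.844 and 0.825 in WT, and lay slightly higher in Delta_Dbp3 without passing (limma adjusted p = 0.754). For Cm663 the 5' ends gave 0.842 and 0.863 in Delta_Dbp3 against 0.846 and 0.83 in WT, and the 3' ends gave 0.859 and 0.942 in Delta_Dbp3 against 0.827 and 0.803 in WT.

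U24, also from an intron, directs Cm1437, Am1449 and Gm1450, and all 3 fell. Am1449 had scores of 0.731 and 0.729 in Delta_Dbp3, against 0.974 and 0.974 in WT. Duplicates were nearly equal in both strains, and the change was -0.244 ± 0.0334 (SE, limma adjusted p = 0.00636). At Am1449 the 5' ends gave 0.658 and 0.706 in Delta_Dbp3 against 0.976 and 0.973 in WT, and the 3' ends gave 0.848 and 0.807 in Delta_Dbp3 against 0.972 and 0.977 in WT. It passed from each end alone (adjusted p = 0.0305 and 0.0183). Reads that began at Am1449 numbered 331 and 478 in Delta_Dbp3 and 52 and 35 in WT.

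Gm1450, the next nucleotide, had scores of 0.734 and 0.831 in Delta_Dbp3, against 0.986 and 0.97 in WT, a change of -0.196 ± 0.0518 (SE, limma adjusted p = 0.0431). The groups did not overlap, with replicate A lower than B in Delta_Dbp3. There the 5' ends gave 0.666 and 0.865 in Delta_Dbp3 against 0.987 and 0.968 in WT, and the 3' ends gave 0.861 and 0.724 in Delta_Dbp3 against 0.986 and 0.98 in WT, so the lower library changed with the end, and neither end passed alone (adjusted p = 0.11 and 0.274). Cm1437 had scores of 0.859 and 0.818 in Delta_Dbp3, against 0.971 and 0.973 in WT, and fell by 0.134 ± 0.0246 (SE, limma adjusted p = 0.0145). Both Delta_Dbp3 libraries were below both WT libraries from each end. At Cm1437 the 5' ends gave 0.785 and 0.609 in Delta_Dbp3 against 0.966 and 0.961 in WT, and the 3' ends gave 0.863 and 0.869 in Delta_Dbp3 against 0.971 and 0.975 in WT, and the fall passed from 5' ends (adjusted p = 0.0309) and not from 3' ends (adjusted p = 0.109).

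Around the U24 targets, Am1133 (snR61) and Um1888 (snR62) had high scores in both strains. Am1133 had 0.905 and 0.955 in Delta_Dbp3, against 0.952 and 0.954 in WT, with overlapping groups (limma adjusted p = 0.526). At Am1133 the 5' ends gave 0.901 and 0.95 in Delta_Dbp3 against 0.953 and 0.944 in WT, and the 3' ends gave 0.912 and 0.961 in Delta_Dbp3 against 0.95 and 0.975 in WT. Um1888 had 0.939 and 0.965 in Delta_Dbp3, against 0.985 and 0.976 in WT, and did not pass (limma adjusted p = 0.351). Few reads began or ended at this site in any of these libraries. At Um1888 the 5' ends gave 1 and 0.945 in Delta_Dbp3 against 1 and 0.967 in WT, and the 3' ends gave 0.928 and 0.974 in Delta_Dbp3 against 0.983 and 0.976 in WT.

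Um1269 was the single site of 18S that passed. It is directed by snR55 and stands next but one to Gm1271. Um1269 had scores of 0.633 and 0.52 in Delta_Dbp3, against 0.965 and 0.983 in WT. In WT the site was almost fully protected, and in Delta_Dbp3 both libraries lay far below, and the mean fell by 0.397 ± 0.0369 (SE, limma adjusted p = 0.00114). The 3' ends carried most of the change, with 269 and 456 reads ending there in Delta_Dbp3 against 26 and 5 in WT. Reads that began there numbered 52 and 288 in Delta_Dbp3 and 28 and 21 in WT. As scores, the 5' ends gave 0.871 and 0.721 in Delta_Dbp3 against 0.963 and 0.983 in WT, and the 3' ends gave 0.432 and 0.12 in Delta_Dbp3 against 0.966 and 0.984 in WT. The groups did not overlap from either end, the 3' ends passed alone (adjusted p = 0.0183) and the 5' ends did not (adjusted p = 0.0626). The fall was larger from 3' ends by 0.522 ± 0.0564 (SE, limma adjusted p = 0.00533). The PRP43_Glu libraries that share the Delta_Dbp3 barcodes had 0.910 and 0.923 from 3' ends here, above both Delta_Dbp3 libraries. This was not so at every called site. With both ends summed and no value replaced, they lay below both Delta_Dbp3 libraries at Am649, Gm805, Gm867, Cm1437, Am1449 and Gm1450. At Am1449, for example, PRP43_Glu replicates B and A had 0.410 and 0.513. The same libraries lay above both at Am817, Gm908, Um1269, Cm2197 and Um2724, and overlapped them at Um898, Um2421, Cm2948 and Cm2959. The part of the barcode was not tested.

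**Figure D3:**
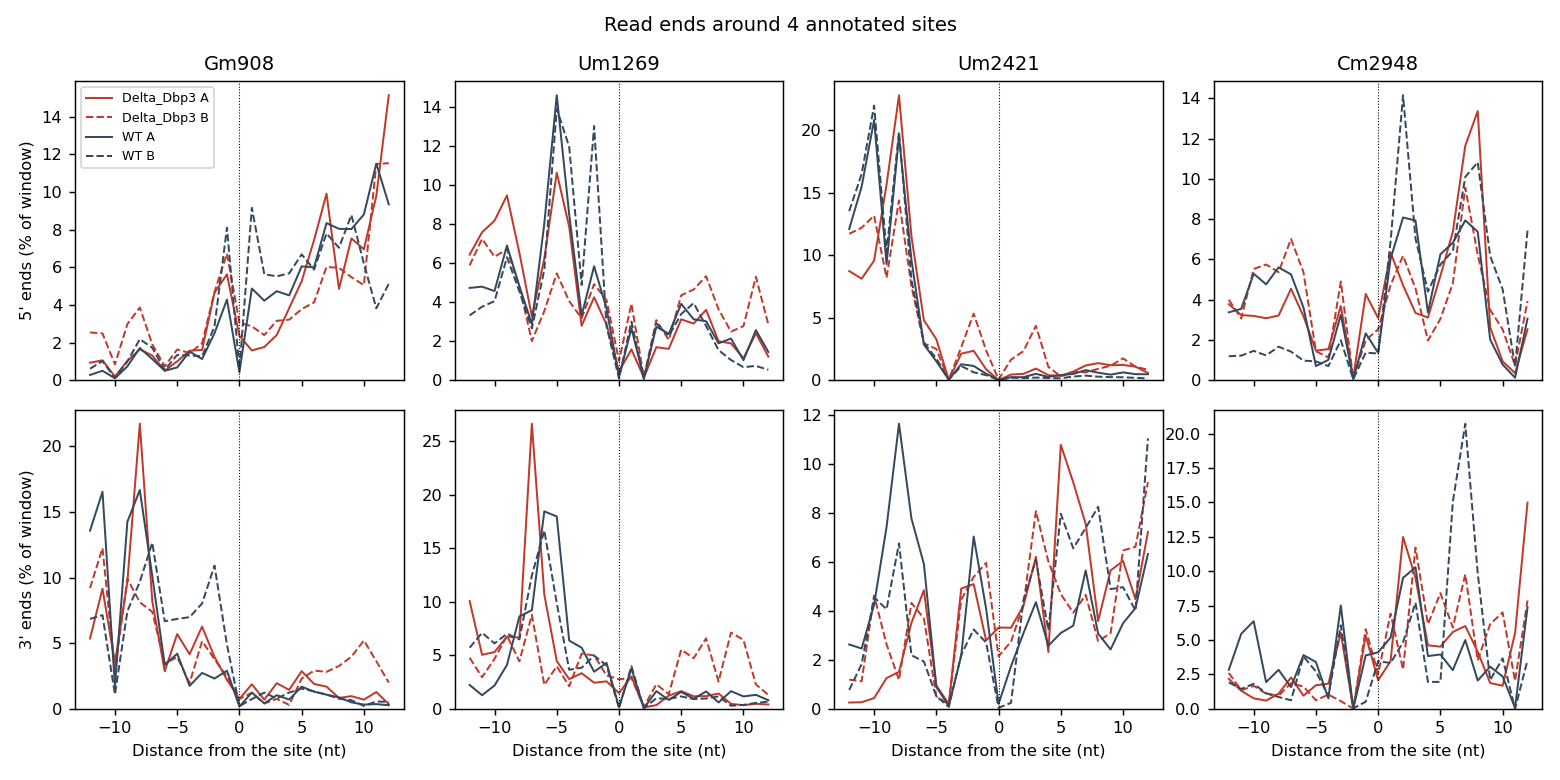
Share of the read ends in a window of 12 nt on each side that falls on each nucleotide (percent of the window) around Gm908, Um1269, Um2421 and Cm2948, with 5' ends above and 3' ends below and a line for each library. At distance 0 of Um1269 the 3' ends take 1.47 and 2.76% in Delta_Dbp3 and 0.164 and 0.0610% in WT, and at Um2421 they take 3.32 and 2.15% in Delta_Dbp3 and 0.2 and 0.0416% in WT.

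The largest mean change was at Um2421, directed by snR78, and there the ends told different things. Um2421 had scores of 0.302 and 0.632 in Delta_Dbp3, against 0.94 and 0.984 in WT. Both Delta_Dbp3 libraries were low and far apart, and the change of -0.494 ± 0.12 (SE) passed (limma adjusted p = 0.0338). That SE rests in part on replaced PRP43 values, which are given below. The fall came from 3' ends alone, of which there were 1459 and 611 in Delta_Dbp3 and 68 and 19 in WT. Only 2 and 12 reads began at the site in Delta_Dbp3, against 8 and 8 in WT. At Um2421 the 5' ends gave 0.989 and 0.975 in Delta_Dbp3 against 0.949 and 0.963 in WT, and the 3' ends gave 0.238 and 0.5 in Delta_Dbp3 against 0.938 and 0.987 in WT, so that from 5' ends both Delta_Dbp3 libraries lay above both WT libraries. Neither end passed alone (adjusted p = 0.192 with 5' ends and 0.421 with 3' ends). The call was kept in 9 of the 22 refits and was lost without WT replicate A or B (limma adjusted p = 0.119 and 0.149).

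Low 3' readings beside high 5' readings were also present in 3 of the 4 PRP43 libraries at Um2421, 1 of which shares no barcode with Delta_Dbp3. PRP43_Glu replicate B, with the barcode of Delta_Dbp3 replicate A, had 0.0779 from 3' ends and 0.918 from 5' ends. PRP43_Glu replicate A, with the barcode of Delta_Dbp3 replicate B, had 0.537 from 3' ends and 0.927 from 5' ends. PRP43_Gal replicate A, with a barcode of its own, had 0 from 3' ends and 0.981 from 5' ends, and PRP43_Gal replicate B, also with its own, had 0.914 and 0.969. In PRP43_Glu replicate B and in PRP43_Gal replicate A the deposited group means use the 5' value at this site. In the Delta_Dbp3 libraries they do not. In the fit with both ends summed, 0.918 stands in place of 0.335 for PRP43_Glu replicate B. For PRP43_Gal replicate A, 0.981 stands in place of 0.119. The SE of 0.12 at Um2421 therefore leaves these low readings out, while those of Delta_Dbp3 were kept. With the 5' value put into Delta_Dbp3 replicate A at Um2421 and Gm562 and into replicate B at Am876, a setting chosen after the data were seen, 14 sites were called lower and Um2421 was not among them. Um2417, 4 nt upstream, had 0.959 and 0.969 in Delta_Dbp3, against 0.98 and 0.981 in WT. At Um2417 the 5' ends gave 0.994 and 0.99 in Delta_Dbp3 against 0.99 and 0.989 in WT, and the 3' ends gave 0.939 and 0.949 in Delta_Dbp3 against 0.974 and 0.969 in WT, and the change of -0.0165 did not pass (limma adjusted p = 0.661).

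**Figure D4:**
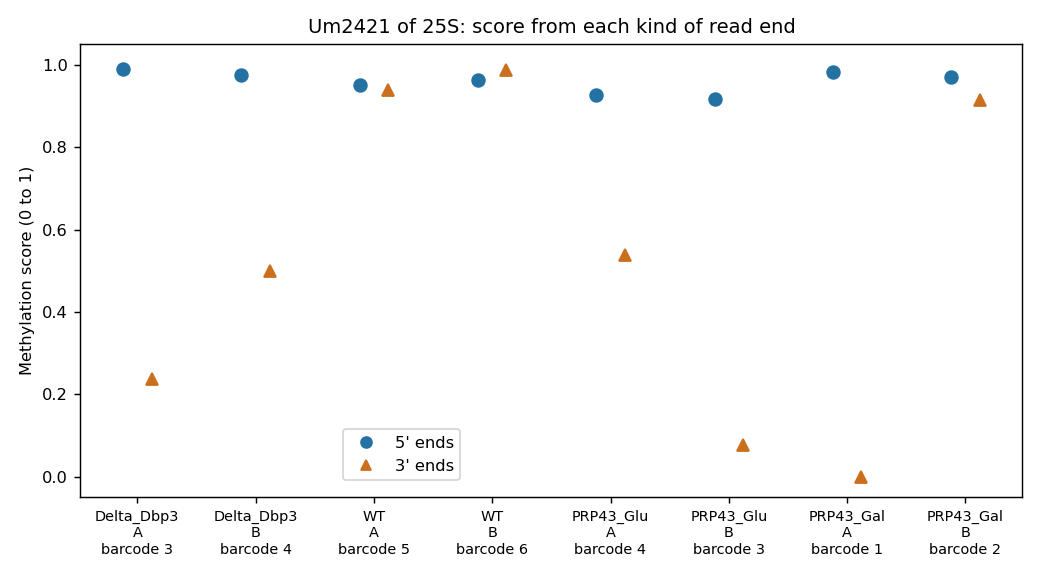
Methylation score (0 to 1) at Um2421 of 25S from 5' ends (circles) and from 3' ends (triangles) in all 8 libraries, with the barcode number of each. From 5' ends the 8 libraries lie at 0.918 or above, whereas from 3' ends both Delta_Dbp3 libraries, at 0.238 and 0.5, lie below both WT libraries, at 0.938 and 0.987, and 3 of the PRP43 libraries are low as well.

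snR67 directs Gm2619 and Um2724, both with lower scores in Delta_Dbp3. Um2724 had scores of 0.832 and 0.738 in Delta_Dbp3, against 0.984 and 0.976 in WT, and fell by 0.195 ± 0.0341 (SE, limma adjusted p = 0.013). The WT libraries were nearly fully protected and the Delta_Dbp3 libraries did not reach them. At Um2724 the 5' ends gave 0.904 and 0.731 in Delta_Dbp3 against 0.983 and 0.986 in WT, and the 3' ends gave 0.715 and 0.773 in Delta_Dbp3 against 0.988 and 0.944 in WT, and neither end passed alone (adjusted p = 0.105 and 0.49). Gm2619 had scores of 0.753 and 0.229 in Delta_Dbp3, against 0.978 and 0.98 in WT. Its WT libraries agreed closely, while the Delta_Dbp3 duplicates differed by more than at any other site, and the change of -0.488 ± 0.162 (SE) did not pass (limma adjusted p = 0.0791). Reads that began at Gm2619 numbered 179 and 415 in Delta_Dbp3 and 25 and 11 in WT, and those that ended there 57 and 180 in Delta_Dbp3 and 9 and 15 in WT. From the ends, the 5' ends gave 0.703 and 0 in Delta_Dbp3 against 0.978 and 0.988 in WT, and the 3' ends gave 0.839 and 0.505 in Delta_Dbp3 against 0.978 and 0.959 in WT. Delta_Dbp3 lay below WT from both ends, and the PRP43_Glu libraries of the same barcodes had 0.954 and 0.912 with both ends summed.

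In the peptidyl transferase region, Cm2948 and Cm2959 fell. Cm2948, directed by snR69, had scores of 0.253 and 0.274 in Delta_Dbp3, against 0.582 and 0.651 in WT. It was only partly protected in WT, and in Delta_Dbp3 it fell by 0.353 ± 0.0585 (SE, limma adjusted p = 0.0114). The ends disagreed, since the 5' ends gave 0.161 and 0.238 in Delta_Dbp3 against 0.67 and 0.699 in WT, and the 3' ends gave 0.574 and 0.418 in Delta_Dbp3 against 0.137 and 0.0694 in WT. From 5' ends the fall passed (adjusted p = 0.000576), and from 3' ends both Delta_Dbp3 libraries lay above both WT libraries without passing (adjusted p = 0.185). The change from 5' ends differed from that from 3' ends by -0.877 ± 0.126 (SE, limma adjusted p = 0.0099). Reads that began at the site numbered 884 and 652 in Delta_Dbp3 and 346 and 397 in WT, and those that ended there 128 and 123 in Delta_Dbp3 and 180 and 101 in WT.

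Cm2959, directed by snR73, had scores of 0.746 and 0.809 in Delta_Dbp3, against 0.965 and 0.887 in WT, a change of -0.148 ± 0.0329 (SE, limma adjusted p = 0.0251). The groups did not overlap, but from 5' ends alone they did. There the 5' ends gave 0.916 and 0.823 in Delta_Dbp3 against 0.962 and 0.87 in WT, and the 3' ends gave 0.368 and 0.775 in Delta_Dbp3 against 0.983 and 1 in WT. The 3' ends thus separated the strains and the 5' ends did not, and neither passed alone (adjusted p = 0.488 and 0.185). Am2946, which lies 2 nt before Cm2948 and is directed by snR71, had 0.972 and 0.981 in Delta_Dbp3, against 0.989 and 0.984 in WT. Both strains were near full protection, with a change of -0.0105 that did not pass (limma adjusted p = 0.528). At Am2946 the 5' ends gave 0.965 and 0.978 in Delta_Dbp3 against 0.986 and 0.984 in WT, and the 3' ends gave 0.996 and 0.994 in Delta_Dbp3 against 1 and 0.989 in WT.

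Um2921 and Gm2922 are neighbours in the same region. Um2921 is directed by snR52, and Gm2922 is methylated by Spb1, a protein enzyme that needs no guide RNA. Gm2922 had scores of 0.977 and 0.986 in Delta_Dbp3, against 0.98 and 0.984 in WT, with overlapping groups (limma adjusted p = 0.99). At Gm2922 the 5' ends gave 0.979 and 0.991 in Delta_Dbp3 against 0.963 and 0.994 in WT, and the 3' ends gave 0.976 and 0.985 in Delta_Dbp3 against 0.982 and 0.983 in WT. Um2921 had 0.99 and 0.989 in Delta_Dbp3, against 0.994 and 0.996 in WT, a change of -0.00511 that did not pass (limma adjusted p = 0.755). At Um2921 the 5' ends gave 0.982 and 0.967 in Delta_Dbp3 against 0.982 and 0.983 in WT, and the 3' ends gave 0.992 and 0.992 in Delta_Dbp3 against 0.995 and 0.998 in WT. Both nucleotides were at 0.963 or above in these 4 libraries from either end.

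Cm2197, directed by snR76, was the lowered site between Cm2197 and Gm2288. It had scores of 0.737 and 0.715 in Delta_Dbp3, against 0.92 and 0.816 in WT, and fell by 0.142 ± 0.0377 (SE, limma adjusted p = 0.0431). The WT duplicates lay farther apart than those of Delta_Dbp3, and the groups did not overlap. At Cm2197 the 5' ends gave 0.646 and 0.612 in Delta_Dbp3 against 0.881 and 0.8 in WT, and the 3' ends gave 0.969 and 0.948 in Delta_Dbp3 against 0.987 and 0.862 in WT. The 5' ends passed (adjusted p = 0.0178), whereas from 3' ends the mean was higher in Delta_Dbp3 by 0.0342 and the groups overlapped (adjusted p = 0.694). The difference between the ends, -0.245 ± 0.0358 (SE), passed its test (limma adjusted p = 0.0099).

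None of the other 5 sites of that interval passed. Am2256, directed by snR63, had 0.912 and 0.834 in Delta_Dbp3, against 0.927 and 0.987 in WT, and a change of -0.0834 ± 0.0327 (SE, limma adjusted p = 0.134). WT replicate A lay close to the higher Delta_Dbp3 library. At Am2256 the 5' ends gave 0.953 and 0.961 in Delta_Dbp3 against 0.975 and 0.987 in WT, and the 3' ends gave 0.84 and 0.683 in Delta_Dbp3 against 0.753 and 0.986 in WT, so the groups were apart from 5' ends and overlapped from 3' ends. Am2220, the second target of snR47, had 0.958 and 0.959 in Delta_Dbp3, against 0.977 and 0.972 in WT. At Am2220 the 5' ends gave 0.975 and 0.979 in Delta_Dbp3 against 0.991 and 1 in WT, and the 3' ends gave 0.955 and 0.951 in Delta_Dbp3 against 0.972 and 0.967 in WT. The groups were apart by little and the change did not pass (limma adjusted p = 0.351). Am2280 and Am2281 are adjacent and both directed by snR13. Am2280 had 0.97 and 0.991 in Delta_Dbp3, against 0.976 and 0.977 in WT. At Am2280 the 5' ends gave 0.966 and 0.992 in Delta_Dbp3 against 0.979 and 0.983 in WT, and the 3' ends gave 0.986 and 0.99 in Delta_Dbp3 against 0.966 and 0.965 in WT. Am2281 had 0.978 and 0.978 in Delta_Dbp3, against 0.983 and 0.946 in WT. The groups overlapped at both with the ends summed (limma adjusted p = 0.901 and 0.661). At Am2281 the 5' ends gave 0.989 and 0.986 in Delta_Dbp3 against 0.987 and 0.989 in WT, and the 3' ends gave 0.939 and 0.97 in Delta_Dbp3 against 0.966 and 0.872 in WT. Gm2288 (snR75) had 0.963 and 0.933 in Delta_Dbp3, against 0.97 and 0.968 in WT, with both Delta_Dbp3 libraries below WT, replicate B by more (limma adjusted p = 0.657). At Gm2288 the 5' ends gave 0.979 and 0.93 in Delta_Dbp3 against 0.968 and 0.97 in WT, and the 3' ends gave 0.934 and 0.936 in Delta_Dbp3 against 0.984 and 0.965 in WT.

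Between Cm2337 and Um2421, Cm2337 (snR64) had 0.96 and 0.913 in Delta_Dbp3, against 0.982 and 0.979 in WT, and did not pass (limma adjusted p = 0.215). At Cm2337 the 5' ends gave 0.97 and 0.934 in Delta_Dbp3 against 0.98 and 0.974 in WT, and the 3' ends gave 0.953 and 0.901 in Delta_Dbp3 against 0.985 and 1 in WT. Um2347 (snR65) was partly protected in both strains, with 0.635 and 0.472 in Delta_Dbp3, against 0.563 and 0.604 in WT, and the groups overlapped (limma adjusted p = 0.755). Its ends scattered widely in WT too, since the 5' ends gave 0.555 and 0.138 in Delta_Dbp3 against 0.402 and 0.637 in WT, and the 3' ends gave 0.689 and 0.779 in Delta_Dbp3 against 0.932 and 0.575 in WT.

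Between Gm2619 and Gm2815, the sites other than the snR67 targets had mean scores within 0.05 of WT and did not pass (limma adjusted p from 0.161 to 0.98). Am2640 (snR68) had 0.926 and 0.936 in Delta_Dbp3, against 0.959 and 0.969 in WT. At Am2640 the 5' ends gave 0.91 and 0.957 in Delta_Dbp3 against 0.943 and 0.964 in WT, and the 3' ends gave 0.948 and 0.903 in Delta_Dbp3 against 1 and 0.976 in WT. Um2729 (snR51), 5 nt after Um2724, had 0.973 and 0.944 in Delta_Dbp3, against 0.97 and 0.948 in WT, with overlapping groups. At Um2729 the 5' ends gave 0.947 and 0.964 in Delta_Dbp3 against 0.964 and 0.946 in WT, and the 3' ends gave 0.992 and 0.823 in Delta_Dbp3 against 0.974 and 0.951 in WT. Gm2791 and Gm2793 are both directed by snR48. Gm2791 had 0.981 and 0.971 in Delta_Dbp3, against 0.953 and 0.903 in WT. It was higher in both Delta_Dbp3 libraries by 0.0481 ± 0.0247 on average (SE) and did not pass (limma adjusted p = 0.215). At Gm2791 the 5' ends gave 0.965 and 0.96 in Delta_Dbp3 against 0.973 and 0.956 in WT, and the 3' ends gave 0.99 and 0.985 in Delta_Dbp3 against 0.942 and 0.882 in WT, so the separation was in the 3' ends. Gm2793 had 0.963 and 0.974 in Delta_Dbp3, against 0.981 and 0.97 in WT, and its groups overlapped (limma adjusted p = 0.703). At Gm2793 the 5' ends gave 0.908 and 0.962 in Delta_Dbp3 against 0.968 and 0.954 in WT, and the 3' ends gave 0.987 and 0.989 in Delta_Dbp3 against 0.988 and 0.977 in WT. Gm2815, the target of the intron-encoded snR38, had 0.954 and 0.948 in Delta_Dbp3, against 0.973 and 0.978 in WT. Both Delta_Dbp3 libraries lay just below WT from each end, and the change of -0.0241 was the one closest to the threshold among them. At Gm2815 the 5' ends gave 0.953 and 0.942 in Delta_Dbp3 against 0.972 and 0.975 in WT, and the 3' ends gave 0.972 and 0.978 in Delta_Dbp3 against 1 and 1 in WT.

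The 5' part of 18S held 9 sites from Am28 to Am619, and none passed. Cm414, directed by U14, had scores of 0.757 and 0.92 in Delta_Dbp3, against 0.952 and 0.951 in WT, and a change of -0.113 ± 0.0832 (SE, limma adjusted p = 0.384), with replicate A alone far below the rest. At Cm414 955 and 219 reads ended in Delta_Dbp3 against 64 and 58 in WT, and at most 12 began there in any of these libraries. As scores, the 5' ends gave 0.979 and 0.98 in Delta_Dbp3 against 0.891 and 0.968 in WT, and the 3' ends gave 0.754 and 0.918 in Delta_Dbp3 against 0.957 and 0.95 in WT, so the 5' ends separated the groups upward and the 3' ends downward. Am420, directed by snR52 and 6 nt downstream, had 0.897 and 0.909 in Delta_Dbp3, against 0.876 and 0.809 in WT, higher in both Delta_Dbp3 libraries, with a change of 0.0606 ± 0.0644 (SE) that did not pass (limma adjusted p = 0.56). At Am420 the 5' ends gave 0.872 and 0.643 in Delta_Dbp3 against 0.892 and 0.943 in WT, and the 3' ends gave 0.898 and 0.951 in Delta_Dbp3 against 0.874 and 0.798 in WT, which again runs in opposite directions by end.

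Am28 (snR74) had 0.946 and 0.94 in Delta_Dbp3, against 0.985 and 0.977 in WT. Both Delta_Dbp3 libraries were lower from each end, and the mean change of -0.038 did not pass (limma adjusted p = 0.0791). At Am28 the 5' ends gave 0.945 and 0.946 in Delta_Dbp3 against 0.984 and 0.977 in WT, and the 3' ends gave 0.957 and 0.884 in Delta_Dbp3 against 0.99 and 0.986 in WT. Gm562, for which no guide is assigned here, had 0.931 and 0.912 in Delta_Dbp3, against 0.979 and 0.971 in WT, a change of -0.0534 ± 0.0334 (SE) that did not pass (limma adjusted p = 0.317). At Gm562 the 5' ends gave 0.929 and 0.917 in Delta_Dbp3 against 0.978 and 0.971 in WT, and the 3' ends gave 0.974 and 0.86 in Delta_Dbp3 against 0.98 and 0.984 in WT. Am619, the other target of snR47, had 0.843 and 0.889 in Delta_Dbp3, against 0.914 and 0.922 in WT, without overlap of the groups. Its change of -0.0516 ± 0.102 (SE) did not pass (limma adjusted p = 0.755). That SE is pooled over 4 groups, and the PRP43_Glu libraries had 0.330 and 0.650 at this site. At Am619 the 5' ends gave 0.817 and 0.866 in Delta_Dbp3 against 0.868 and 0.902 in WT, and the 3' ends gave 0.941 and 0.968 in Delta_Dbp3 against 0.952 and 0.953 in WT, with the separation in the 5' ends alone.

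The remaining 4 sites of the 5' part of 18S did not pass either (limma adjusted p from 0.215 to 0.944). Am100 (snR51) had 0.898 and 0.862 in Delta_Dbp3, against 0.934 and 0.891 in WT. At Am100 the 5' ends gave 0.857 and 0.81 in Delta_Dbp3 against 0.781 and 0.885 in WT, and the 3' ends gave 0.905 and 0.867 in Delta_Dbp3 against 0.948 and 0.892 in WT. Am436 (snR87) had 0.757 and 0.877 in Delta_Dbp3, against 0.842 and 0.804 in WT, with Delta_Dbp3 on either side of WT. At Am436 the 5' ends gave 0.725 and 0.895 in Delta_Dbp3 against 0.837 and 0.799 in WT, and the 3' ends gave 0.927 and 0.842 in Delta_Dbp3 against 0.864 and 0.847 in WT. Am541 (snR41) had 0.894 and 0.936 in Delta_Dbp3, against 0.955 and 0.949 in WT. At Am541 the 5' ends gave 0.918 and 0.963 in Delta_Dbp3 against 0.958 and 0.976 in WT, and the 3' ends gave 0.884 and 0.915 in Delta_Dbp3 against 0.955 and 0.923 in WT. The groups separated at Am541 and overlapped at Am100 and Am436. Um578, directed by snR77, had 0.95 and 0.919 in Delta_Dbp3, against 0.982 and 0.931 in WT. At Um578 the 5' ends gave 0.947 and 0.906 in Delta_Dbp3 against 0.985 and 0.935 in WT, and the 3' ends gave 0.954 and 0.935 in Delta_Dbp3 against 0.936 and 0.904 in WT. Its groups overlapped from every reading.

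Of the 4 sites from Am796 to Gm1126 none passed (limma adjusted p from 0.19 to 0.98), and the median change was -0.0136. Am796 (snR53) had 0.933 and 0.927 in Delta_Dbp3, against 0.94 and 0.966 in WT. At Am796 the 5' ends gave 0.925 and 0.882 in Delta_Dbp3 against 0.932 and 0.965 in WT, and the 3' ends gave 0.987 and 0.967 in Delta_Dbp3 against 0.954 and 0.969 in WT. Am974, directed by the intron-encoded snR54, had 0.949 and 0.954 in Delta_Dbp3, against 0.976 and 0.978 in WT. At Am974 the 5' ends gave 0.944 and 0.974 in Delta_Dbp3 against 0.96 and 0.98 in WT, and the 3' ends gave 0.959 and 0.908 in Delta_Dbp3 against 1 and 0.973 in WT. At both sites the Delta_Dbp3 libraries lay below WT with the ends summed, with mean changes of -0.0231 and -0.0256. Cm1007 (snR79) had 0.947 and 0.97 in Delta_Dbp3, against 0.953 and 0.967 in WT. At Cm1007 the 5' ends gave 0.943 and 0.964 in Delta_Dbp3 against 0.909 and 0.949 in WT, and the 3' ends gave 0.95 and 0.976 in Delta_Dbp3 against 0.973 and 0.973 in WT. Gm1126, the second target of snR41, had 0.924 and 0.945 in Delta_Dbp3, against 0.92 and 0.957 in WT. At Gm1126 the 5' ends gave 0.886 and 0.941 in Delta_Dbp3 against 0.929 and 0.959 in WT, and the 3' ends gave 0.95 and 0.947 in Delta_Dbp3 against 0.898 and 0.945 in WT. The groups overlapped at Cm1007 and Gm1126.

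In the 3' part of 18S, beside Um1269 and Gm1271, Gm1428 (snR56) had 0.977 and 0.982 in Delta_Dbp3, against 0.968 and 0.986 in WT. At Gm1428 the 5' ends gave 0.964 and 0.932 in Delta_Dbp3 against 0.944 and 0.993 in WT, and the 3' ends gave 0.983 and 0.989 in Delta_Dbp3 against 0.986 and 0.984 in WT. Gm1572 (snR57) had 0.889 and 0.937 in Delta_Dbp3, against 0.953 and 0.806 in WT, with WT replicate B the lowest of the 4. At Gm1572 the 5' ends gave 0.94 and 0.905 in Delta_Dbp3 against 0.964 and 0.983 in WT, and the 3' ends gave 0.883 and 0.948 in Delta_Dbp3 against 0.945 and 0.75 in WT. Neither separated the groups with both ends summed (limma adjusted p = 0.944 and 0.851). Cm1639 (snR70) had 0.971 and 0.965 in Delta_Dbp3, against 0.984 and 0.994 in WT. At Cm1639 the 5' ends gave 0.981 and 0.987 in Delta_Dbp3 against 1 and 0.992 in WT, and the 3' ends gave 0.897 and 0.822 in Delta_Dbp3 against 0.951 and 1 in WT. At Cm1639 both Delta_Dbp3 libraries lay below WT, and the mean change of -0.0209 did not pass (limma adjusted p = 0.218).

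Seen by guide, calls were spread over the ways in which snoRNAs are encoded. The shares over all 55 sites were 27.3% called lower and 69.1% with both Delta_Dbp3 libraries below both WT libraries, and no list was tested against them. Of the 8 sites whose guides come from introns 4 were called, with a median change of -0.139, and both Delta_Dbp3 libraries were below both WT libraries at 8 of 8. U18 and U24 give 5 of these sites. Of the 19 sites of guides from polycistronic clusters 5 were called, with a median of -0.0368. Of the 26 sites of guides from genes of their own 6 were called, with a median of -0.0225. Both Delta_Dbp3 libraries were below both WT libraries at 13 of the 19 and at 16 of the 26. The median over all 55 sites was -0.0327. Sites of guides that direct several of them were called at 8 of 23. Calls covered every target of U24 (3 of 3) and snR60 (2 of 2), 1 of 2 targets for U18, snR67 and snR40, and no target of snR13, snR41, snR47, snR48, snR51 and snR52. Targets of one guide share that RNA, and neighbouring sites share fragments and expected values, so these counts are not over independent units.

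Read from 5' ends alone, limma called 8 of the 55 sites lower (14.5%), which were Am649, Am817, Am876, Gm908, Cm1437, Am1449, Cm2197 and Cm2948. From 3' ends alone it called 4 (7.27%), Um1269, Am649, Gm908 and Am1449. Both Delta_Dbp3 libraries were below both WT libraries at 30 sites from 5' ends (54.5%), at 31 from 3' ends (56.4%) and at 21 from each end. Of the 15 sites called with both ends summed, 3 passed from each end alone, 4 from 5' ends only, 1 from 3' ends only and 7 from neither. The groups were apart downward from each end at 11 of these 15. The exceptions were Cm2197 and Cm2948, not lower from 3' ends, and Um2421 and Cm2959, not lower from 5' ends. Duplicates differed by a median of 0.0433 from 5' ends and 0.0460 from 3' ends in Delta_Dbp3, and by 0.0178 and 0.0190 in WT.

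The test of whether the change differs between the ends passed at 4 of 55 sites (7.27%), and 5 had an unadjusted p under 0.05. The fall was larger from 5' ends at Gm908, Cm2948 and Cm2197, and larger from 3' ends at Um1269. This count was 0 when the ends were compared on a log2 ratio of read ends over expected ends, and 0 without WT replicate A. At Um2421 the ends differed by 0.619 ± 0.324 (SE) and did not pass (limma adjusted p = 0.511), with the Delta_Dbp3 duplicates far apart from 3' ends.

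**Figure D5:**
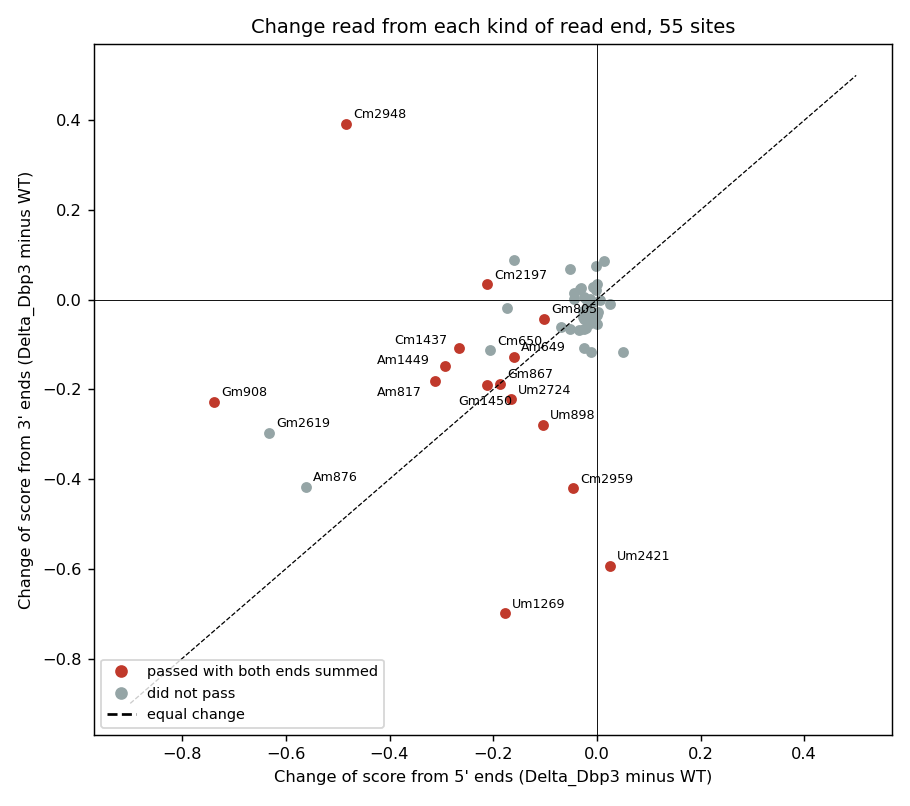
Change of the methylation score (Delta_Dbp3 minus WT) at the 55 sites from 5' ends on the x axis and from 3' ends on the y axis; red points passed with both ends summed, and the dashed line marks equal change. Am649, Gm908 and Am1449, which passed from each end, lie at the lower left, Um2421 lies at 0.0255 and -0.593, and Cm2948 at -0.485 and 0.393.

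The size of the change can also be read as the ratio of unprotected rRNA, 1 minus the mean score, in Delta_Dbp3 over WT. This ratio was 5.76 at Gm908, 5.44 at Am817, 16.2 at Um1269, 10.5 at Am649, 10.5 at Am1449 and 1.92 at Cm2948. It was 13.9 at Um2421, and the largest of all sites was 24.2 at Gm2619, which did not pass. The order by ratio thus differed from the order by difference in score. Sites near full protection in WT, such as Um1269, had large ratios from few WT read ends, and Cm2948, partly open in WT, had a small one.

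Reads on the guide RNAs themselves were few. Scaled to 1000000 5' ends on 18S and 25S, the U18 region had 161 and 269 in Delta_Dbp3 and 169 and 109 in WT, and the U24 region 66.7 and 42.6 in Delta_Dbp3 and 69.4 and 50.6 in WT. The snR60 region had 121 and 79.5 in Delta_Dbp3, against 102 and 127 in WT. The groups overlapped for these 3 snoRNAs. For snR63, which directs Am2256, they did not, with 268 and 269 in Delta_Dbp3 and 172 and 212 in WT, and an exact permutation test of 2 against 2 cannot go below p = 0.333. The counts behind these values ran from 207 to 1509 read ends, and fragments of 20 to 40 nt measure the level of a short RNA only roughly.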

How the data were processed

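RiboMeth-seq libraries of whole cell yeast RNA were sequenced on the Ion Proton, and reads were processed with cutadapt 2.0 and Bowtie2 2.3.4.1, per the submitters' processing notes. The sources used here do not give mapping parameters or a genome build. The deposited counts, per the file headers, are reads with their 5' end or 3' end at each nucleotide, and their sum, without normalization. The deposited fraction (0 to 1) is the authors' methylation score per library, and the deposited score in the overview is the authors' group mean at annotated sites. The fraction was recomputed as 1 minus the read ends over an expected number, which is the average of 2 weighted means, 1 for the 6 nucleotides before and 1 for the 6 after, with weights of 1 for the nearest to 0.5 for the farthest, and values below 0 set to 0. The largest difference from the deposited value was 5.00e-10 over 41376 values. At 6 of 220 deposited site and group means, all in the PRP43 strain, the authors' mean was met only with the score from 5' ends in 1 library, per the file headers a barcode correction, and these were kept.

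Site scores were tested with limma 3.58.1 (R 4.3.3) in a single fit over 8 libraries, by group and without a block, with empirical Bayes moderation (prior degrees of freedom 1.31, residual 4), two-sided, and Benjamini-Hochberg adjustment over the 55 sites at 0.05. The score from 5' ends minus that from 3' ends was tested in the same way. edgeR 4.0.16 (quasi-likelihood) on the deposited counts was an alternative, with other scales, neighbours, read ends, coverage minimums, moderation and libraries left out. All 55 sites are given, with full statistics for those that passed and for the 10 largest changes that did not. The comparison, sites and lists were chosen with earlier results of these data known. Correlations and figures used Python 3.11.15, numpy 2.4.6, scipy 1.17.1 and matplotlib 3.10.9. Positions are those of mature 18S and 25S rRNA in the deposited tables.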

Additional observations from a re-analysis of the deposited data

How the results depend on the processing

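The 15 sites called lower with limma became 25 on log2 odds, where 1 site, Gm2791, was called higher (named after its values were seen), 7 with only the 4 compared libraries, 8 from 5' ends and 4 from 3' ends. Leaving out each library gave 7 to 16 sites, with 7 without WT replicate A and 8 without WT replicate B. With the replicate letter as a block the counts were 12 lower and 0 higher, and 3 and 1 in the test of ends, and samples of the same letter did not deviate together in Delta_Dbp3 and WT (r = -0.0527 over 55 sites), so the letters were not taken as pairs. In the test of ends, 3 sites with a larger fall from 5' ends and 1 from 3' ends became 0 and 0 on the log2 ratio scale. With a library left out these counts ranged between 0 and 5 and between 0 and 2, with 0 and 0 without WT replicate A. Changes turned round at Cm2197 and Cm2948 from 3' ends (0.0342 and 0.393) and at Um2421 from 5' ends (0.0255), none of which passed, and the cause was not tested. The other settings gave 10 to 20 lower and 0 higher. Among them were 20 with trend and robust moderation, 20 with edgeR at the sites and 10 with edgeR over all nucleotides. Without the authors' barcode correction the count was 11, and 4 of the 15 sites lost their call. Depth limits sites with few expected read ends of one kind, such as Um1888 from 5' ends.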
